A study of Mus musculus with 35 samples.

Results

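The 10 genes of the Polycomb repressive complex 2 (PRC2) described here are the core subunits Ezh2, Ezh1, Eed, Suz12, Rbbp4 and Rbbp7 and the accessory subunits Jarid2, Aebp2, Mtf2 and Phf19. They were taken by Entrez identifier from the 19138 genes counted in every library, and all 10 were found and passed the low-count filter. RNA-seq had been done on LT-HSCs (long-term haematopoietic stem cells, bone marrow cells that renew themselves and give rise to all blood lineages), in 35 libraries of 1000 sorted mouse cells each. The control mice (n = 4) carried SclCre alone, a Cre recombinase driven by regulatory sequence of the blood stem cell gene Scl. SclCre was present in every other group too. The groups called Ezh2-het (n = 7) and Ezh2-null (n = 4) were SclCre;Ezh2+/- and SclCre;Ezh2-/-. The groups called JAK2-VF (n = 6), JAK2-VF Ezh2-het (n = 8) and JAK2-VF Ezh2-null (n = 6) had the same Ezh2 genotypes with JAK2V617F, the activating kinase mutation of myeloproliferative neoplasms. Ages were not analysed here. Libraries are not tied to animals by the labels, and the p-values therefore rest on variation from library to library.

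PRC2 places methyl groups on lysine 27 of histone H3, a mark of silenced genes. Ezh2 or its paralogue Ezh1 is the catalytic subunit; Eed reads the mark and stimulates the enzyme, Suz12 is the scaffold, and Rbbp4 and Rbbp7 are histone-binding proteins shared with other chromatin complexes. Jarid2 and Aebp2 join one form of the complex, and the Polycomb-like proteins Mtf2 and Phf19 join another. In blood, Ezh2 is typically abundant in dividing cells and Ezh1 in quiescent ones. The comparisons ask how RNA of the subunits varied as Ezh2 alleles were lost, with and without JAK2-VF.

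Total counts ran from 13.55 to 48.56 M per library, and 14 libraries belonged to batch 1 and 21 to batch 2. All 7 stem cell markers, among them Kit, Procr and Hlf, were detected in all libraries. The T cell gene Cd3e was at 0 in 32 of the 35 libraries and the B cell gene Ms4a1 at 0 in 28, while RNA of the myeloid genes Mpo (2.94 to 2528 CPM) and S100a8 (22.6 to 2754 CPM) and of the platelet gene Pf4 (15.9 to 1039 CPM) was present. CPM, the counts of a gene divided by the library's total in M, are used for levels throughout. In bulk RNA, fewer cells of a type and less RNA per cell cannot be told apart. All 4 controls came from females, and sex and batch were terms of the fit.

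A row for part of Ezh2, 178 bases long, had been counted on its own. Among neighbouring exons of the reference transcript Ezh2-201, only exons 16 and 17 of its 20 add up to this length. The row's name gives exons 4 and 5, which add up to 238 bases when counted from the 5′ end. Counted from the low-coordinate end of the gene, exons 17 and 16 are exons 4 and 5. That exons 16 and 17 are the counted part is inferred from length and this numbering and is not certain. Both are coding, and in GRCm38, a later build than the mm9 of the counts, they lie on the minus strand at chr6:47533742-47533837 and chr6:47532902-47532983. The reference sequence is shown because the null groups had the fewest counts in the part, with exon 16 in lower case and exon 17 in capitals, 5′ to 3′.
Ezh2 exons 16 and 17: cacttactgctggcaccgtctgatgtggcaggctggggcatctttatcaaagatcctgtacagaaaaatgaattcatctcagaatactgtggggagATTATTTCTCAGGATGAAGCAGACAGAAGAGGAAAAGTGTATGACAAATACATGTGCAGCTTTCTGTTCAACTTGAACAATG

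In the 4 controls the part was at 1.68 to 4.78 CPM and in the 6 JAK2-VF libraries at 3.77 to 9.35 CPM. All 6 JAK2-VF Ezh2-null libraries had 0 counts in it, and so did 3 of the 4 Ezh2-null libraries, with 3 counts in the fourth. The rest of Ezh2 was still counted in these libraries, at 23.1 ± 4.57 CPM in Ezh2-null (SD, n = 4) and 27.1 ± 8.26 in JAK2-VF Ezh2-null (n = 6), against 43.3 ± 14.2 in control and 67.7 ± 18.6 in JAK2-VF. RNA of the gene without the part thus remained in the null groups. In the Ezh2-het group the part ran from 0 to 4.37 CPM and in JAK2-VF Ezh2-het from 1.83 to 6.30 CPM, overlapping the groups with intact Ezh2. As a share of Ezh2 counts it was 6.02 to 8.718% in control and 4.077 to 8.495% in JAK2-VF Ezh2-het. The share was only 1.738% and 1.774% in Ezh2-het batch 2 replicates 1 and 3. It was 4.789 to 9.497% in Ezh2-het batch 1 replicates 1 and 2 and batch 2 replicates 2 and 4. In the library labelled Ezh2-het batch 1 replicate 3, none of the 831 counts of Ezh2 fell in the part (0), which allowed a share of up to 0.361%. The library labelled Ezh2-het batch 1 replicate 1 and male had Xist, the RNA that silences an X chromosome in females, at 394.2 CPM, against 0.436 to 14.8 CPM in the other 14 labelled male and 581.7 to 1433 CPM in the 20 labelled female. Ezh2-het batch 1 replicates 1 and 3 stayed in the fit under their labels. Leaving these 2 doubted libraries out ended the call of Mtf2 in the averaged JAK2-VF contrast and that of Lgals1, both given further on.

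The 300 bases around each start site were read in RefSeq sequence (GRCm38.p6) for all 10 genes. Either of a pair of E2F motifs, TTCCCGC and TTGGCGC on both strands, was found in 4 of them, Ezh2, Suz12, Rbbp4 and Phf19, and in 7.79% of all 27025 genes. E2F factors drive genes of the cell cycle. The stretches below, each in the gene's own direction, show the match in capitals. They are printed because a match was found in Ezh2 and Rbbp4, which rose with JAK2-VF in the averaged contrast given further on; Mtf2 rose there too and held none, and Suz12 and Phf19 held one and were not called.
Ezh2, minus strand, chr6:47595005-47595056: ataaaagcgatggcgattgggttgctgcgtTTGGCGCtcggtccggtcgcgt
Rbbp4, minus strand, chr4:129335364-129335415: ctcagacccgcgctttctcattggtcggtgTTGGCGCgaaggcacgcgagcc
Suz12, plus strand, chr11:79992858-79992909: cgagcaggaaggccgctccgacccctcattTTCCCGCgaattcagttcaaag
Phf19, minus strand, chr2:34914163-34914214: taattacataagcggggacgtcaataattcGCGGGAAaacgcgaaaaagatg

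The match began at position 5 of the Ezh2 transcript and at position -15 from the start of Rbbp4, whereas in Suz12 and Phf19 it began at -218 and -208. The motifs were chosen after the values had been seen. Also searched on both strands were CCAAT (8 of 10 members, 41.06% of genes), TTTGAA or TTCGAA (4 of 10, 21.66%), CCGGAAG (0 of 10, 9.93%) and GCGCATGCGC (0 of 10, 1.07%). A match describes the letters and is no evidence of binding.

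Per length, the histone-binding subunits held the most RNA of the complex and Phf19 the least. Rbbp4 had a median of 121.6 counts per kb per M total counts over the 35 libraries and Rbbp7 of 117.7. Mtf2, Eed, Ezh1 and Jarid2 lay close together, at medians of 25.8, 25.8, 23.6 and 21.98. Ezh2 had a median of 15.5, Suz12 of 13.1, Aebp2 of 7.504 and Phf19 of 2.77. Relative to its level, Phf19 ranged most over libraries, from 0.762 to 6.61, and Rbbp7 least, from 92.7 to 140.9.

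**Figure D1:**
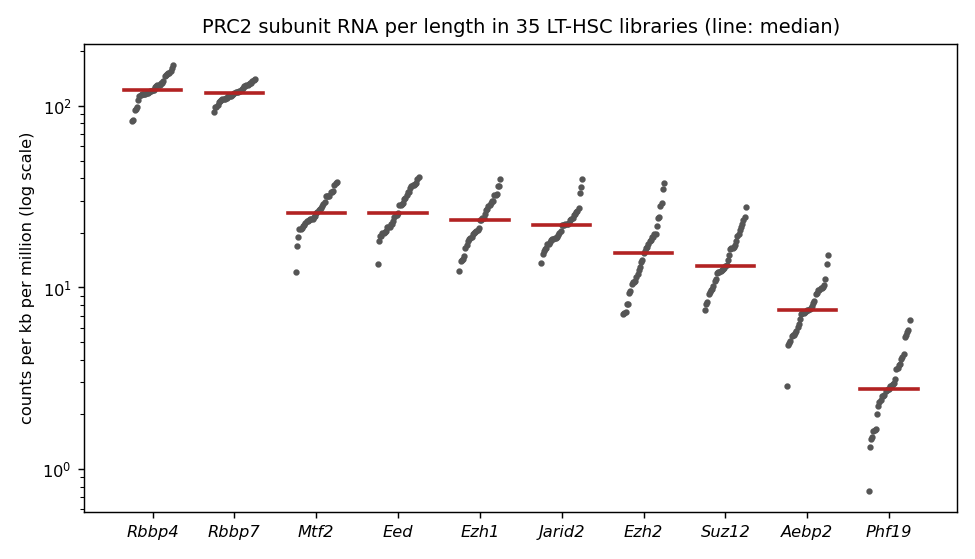
Level of each PRC2 subunit as counts per kb of gene length per M counts (log scale), 1 point per library for 35 libraries, with the median as a line. Rbbp4 and Rbbp7 lie above every other subunit and Phf19, with a median of 2.77, below.

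Ezh2 RNA followed the Ezh2 genotype in the JAK2-VF groups. It was at 52.4, 52.4, 64.0, 78.1, 92.4 and 100.9 CPM in the 6 JAK2-VF libraries (mean 73.3 ± 20.5, SD). In JAK2-VF Ezh2-het it ran from 31.5 through a median of 47.4 to 75.2 CPM (n = 8), and in JAK2-VF Ezh2-null from 18.98 through 25.3 to 41.2 CPM (n = 6). All 6 JAK2-VF Ezh2-null libraries lay below every JAK2-VF library, and 6 of the 8 JAK2-VF Ezh2-het libraries did. Ezh2 fell by 1.498 ± 0.21 (SE) on the log2 scale in JAK2-VF Ezh2-null against JAK2-VF (edgeR adjusted p = 0.000102). It was the only member of the 10 called there, in a comparison that called 0.448% of all genes. The slope over alleles lost with JAK2-VF was -0.74 ± 0.11 per allele (edgeR adjusted p = 6.87e-05), again with Ezh2 alone called and with 0.522% of all genes called. Within batch 1 alone the values were -1.38 and -0.715 and neither passed (edgeR adjusted p = 0.553 and 0.46).

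Without JAK2-VF the order of the groups was the same, at a lower level. The 4 controls were at 27.8, 43.7, 50.4 and 65.1 CPM and the 4 Ezh2-null libraries at 19.2, 19.5, 25.4 and 28.4 CPM. Of the Ezh2-null libraries 3 lay below every control, and the highest of them overlapped the lowest control. The Ezh2-het libraries spread from 24.9 to 50.4 CPM with a median of 37.9 (n = 7), and 1 lay below every control. The log2 differences were -0.95 ± 0.26 for Ezh2-null (95% interval -1.48 to -0.41) and -0.32 ± 0.23 for Ezh2-het (-0.78 to 0.14), with a slope of -0.48 ± 0.13 per allele lost (-0.745 to -0.21). None of these passed over all genes (edgeR adjusted p = 0.483, 1 and 0.375).

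In these comparisons edgeR called no gene at all, a background of 0% for Ezh2-null against control, 0% for Ezh2-het against control and 0% for the slope without JAK2-VF. At an unadjusted p under 0.05 edgeR had 907, 782 and 888 genes, of which 2, 0 and 2 were members (Ezh2 and Mtf2 where there were 2), and DESeq2 called 97, 64 and 24 genes and 0 members. Ezh2 in JAK2-VF Ezh2-het against JAK2-VF, at -0.65 ± 0.19 (95% interval -1.03 to -0.27), did not pass either (edgeR adjusted p = 1). That comparison also called 0% of genes, with 576 genes and 2 members (Ezh2 and Aebp2) at an unadjusted p under 0.05, and 44 genes and 0 members by DESeq2.

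Ordered by mean CPM, Ezh2 rose from Ezh2-null (23.1 ± 4.55) through JAK2-VF Ezh2-null (27.1 ± 8.26), Ezh2-het (37.5 ± 9.11), control (46.8 ± 15.4) and JAK2-VF Ezh2-het (47.5 ± 14.3) to JAK2-VF (73.3 ± 20.5). No neighbouring groups in this order differed by an exact two-sided permutation test adjusted over the 5 pairs. The smallest of the adjusted values was 0.0899, for JAK2-VF above JAK2-VF Ezh2-het, a difference of 0.62 in mean log2(CPM + 1). Control and JAK2-VF Ezh2-het differed by 0.03 (exact permutation adjusted p = 0.903). Whether Ezh2 loss lowered Ezh2 more with JAK2-VF than without was tested as a difference of effects, -0.55 ± 0.35 (95% interval -1.27 to 0.17; edgeR adjusted p = 0.98). None of the 10 members was called there, 1 (Mtf2) had an unadjusted p under 0.05, and DESeq2 called 0 members. Of all genes 0.00669% were called, a single gene, Lgals1, named after its value was seen; 813 had an unadjusted p under 0.05, and DESeq2 called 92.

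**Figure D2:**
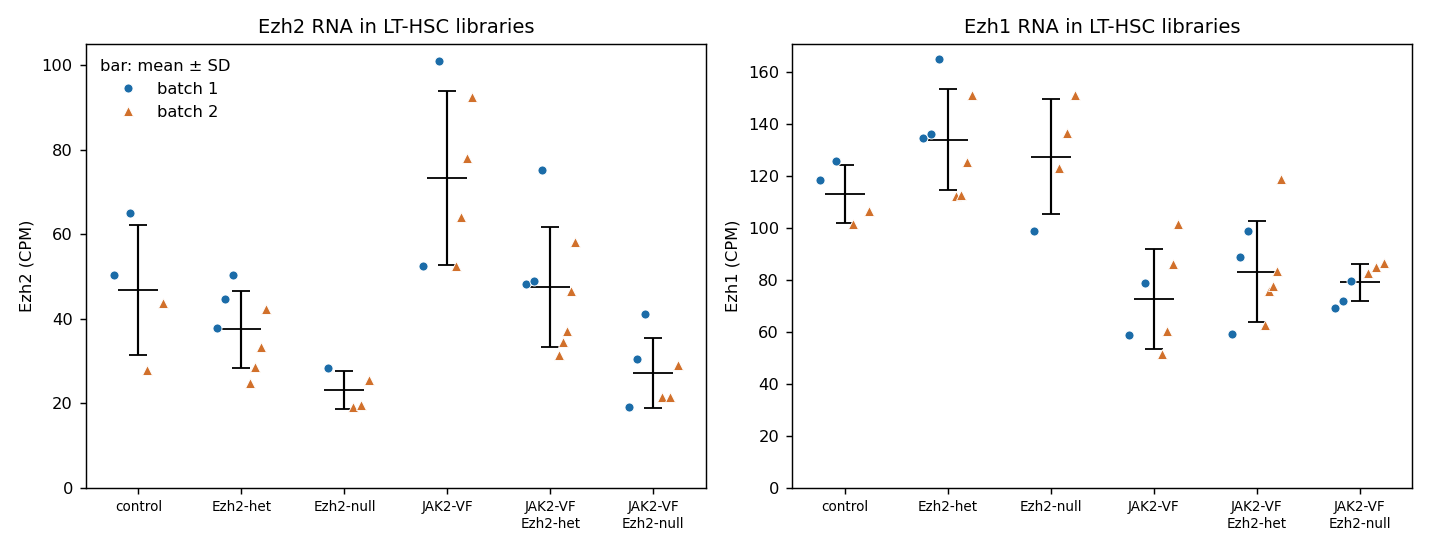
Ezh2 (left) and Ezh1 (right) in CPM in each library of the 6 genotype groups, with circles for batch 1, triangles for batch 2 and bars for mean ± SD. Mean Ezh2 steps down with each allele lost, from 73.3 through 47.5 to 27.1 CPM in the JAK2-VF groups. Libraries that lost 1 allele overlap those with intact Ezh2 in both JAK2 states, and these differences did not pass. Ezh1 lies lower in all 3 JAK2-VF groups.

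Ezh1, the paralogue that can take the catalytic place of Ezh2, did not pass the test in any comparison of Ezh2 genotypes. The 4 Ezh2-null libraries were at 99.03, 123.1, 136.7 and 151.3 CPM and the 4 controls at 101.5, 106.5, 118.6 and 126.0 CPM. The groups overlapped, with 2 Ezh2-null libraries above every control and 1 below. The log2 difference was 0.14, with a 95% interval of -0.27 to 0.55. In JAK2-VF Ezh2-null, at 69.1 to 86.6 CPM with a median of 81.2 (n = 6), all libraries lay inside the range of JAK2-VF, 51.4 to 101.5 CPM with a median of 69.6 (n = 6). That difference was 0.13 (-0.20 to 0.45). The Ezh2-het differences were 0.22 (-0.14 to 0.58) without and 0.21 (-0.09 to 0.51) with JAK2-VF. The slope per Ezh2 allele lost, averaged over both JAK2 states, a contrast chosen after seeing the data, was 0.07 ± 0.06 (-0.06 to 0.19; edgeR adjusted p = 0.928) for Ezh1 and -0.61 ± 0.08 (edgeR adjusted p = 6.9e-05) for Ezh2. Ezh2 was the only member called by that contrast, which called 0.475% of all genes. The intervals of the separate Ezh1 slopes were wider, -0.145 to 0.28 without and -0.10 to 0.23 with JAK2-VF.

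Ezh1 was instead lower with JAK2-VF. All 6 JAK2-VF libraries lay below the 4 controls, although the highest of them, at 101.5 CPM, came within 0.1 CPM of the lowest control. All 6 JAK2-VF Ezh2-null libraries lay below the 4 Ezh2-null libraries, and 7 of the 8 JAK2-VF Ezh2-het libraries lay below every Ezh2-het library. Ezh1 fell by 0.62 ± 0.18 on the log2 scale in JAK2-VF against control (edgeR adjusted p = 0.0447) and by 0.63 ± 0.18 in JAK2-VF Ezh2-null against Ezh2-null (edgeR adjusted p = 0.0336). It was the only member called in either comparison, where 4.15% and 4.81% of all genes were called. The first call was lost when any of 8 of the 10 libraries compared was left out (edgeR adjusted p up to 0.145), the second for 6 of 10 (up to 0.105), and both within each batch alone. Within batch 1 the differences were -0.75 and -0.21, and within batch 2 -0.42 and -0.68.

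Averaged over the 3 Ezh2 genotypes, a contrast also chosen after seeing the data, Ezh1 fell by 0.63 ± 0.09 with JAK2-VF (edgeR adjusted p = 3.52e-06). Over all libraries Ezh1 was at 51.4 to 119.1 CPM with JAK2-VF (median 79.3, n = 20) and at 99.03 to 165.3 CPM without (median 125.4, n = 15), and 17 of the 20 lay below all 15. This call held whichever of the 35 libraries was left out (edgeR adjusted p up to 1.55e-05). It was lost in batch 1 alone, where the value was -0.56 (edgeR adjusted p = 0.0954).

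The balance of Ezh1 to Ezh2 within a library does not depend on how libraries are scaled. As log2 of the ratio of counts it was 0.87, 1.28, 1.32 and 1.87 in the 4 controls and 1.80, 2.28, 2.83 and 2.96 in the 4 Ezh2-null libraries. It ran from 1.41 to 2.60 in Ezh2-het (median 1.76, n = 7), from -0.845 to 0.72 in JAK2-VF (median -0.09, n = 6), from 0.11 to 1.69 in JAK2-VF Ezh2-het (median 0.86, n = 8) and from 0.95 to 2.01 in JAK2-VF Ezh2-null (median 1.72, n = 6). The JAK2-VF libraries were lowest, all 6 below every control. All 6 JAK2-VF Ezh2-null libraries were above every JAK2-VF library. Per length, Ezh1 was at 0.354 to 1.045 times the level of Ezh2 in JAK2-VF and at 2.22 to 4.94 times in Ezh2-null.

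The ratio was lower by 1.34 on the log2 scale in JAK2-VF than in control (exact two-sided permutation adjusted p = 0.0286, adjusted over 6 comparisons). It was higher by 1.60 in JAK2-VF Ezh2-null than in JAK2-VF (exact permutation adjusted p = 0.013, raw p = 0.0022, the smallest 6 against 6 can give) and by 0.83 in JAK2-VF Ezh2-het (exact permutation adjusted p = 0.0426). The differences within batches were -1.19 and -1.535, 1.44 and 1.79, and 0.61 and 0.98, each for batch 1 and then batch 2. The permutations had no terms for batch or sex. In batch 1 every JAK2-VF and control library was labelled female. In batch 2 the JAK2-VF libraries were all male and the controls all female. The value of -1.535 and sex therefore cannot be told apart. Males were 4 of 6 in JAK2-VF, 1 of 6 in JAK2-VF Ezh2-null and 3 of 8 in JAK2-VF Ezh2-het. Values of 1.13 in Ezh2-null and 0.53 in Ezh2-het above control did not pass (exact permutation adjusted p = 0.0686 and 0.0788), nor did -0.87 in JAK2-VF Ezh2-null against Ezh2-null (0.0571). Within batches these were 0.71 and 1.11, 0.62 and 0.40, and -0.45 and -0.855. Without Ezh2-null batch 1 replicate 1 the ratio passed in both Ezh2-null comparisons, at 1.354 and -1.096 (exact permutation adjusted p = 0.0343 for both). The 3 Ezh2-null libraries then left are all of batch 2 and were set against groups of both batches, so these 2 gained calls and batch cannot be told apart. The Ezh2-het ratio passed without control batch 2 replicate 2, at 0.71 (exact permutation adjusted p = 0.0457).

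The calls for JAK2-VF were less firm than that for JAK2-VF Ezh2-null. Against control, the call was lost without JAK2-VF batch 1 replicate 1 or 2 or batch 2 replicate 3 (exact permutation adjusted p up to 0.0686). For JAK2-VF Ezh2-het it was lost without any of those 3, JAK2-VF batch 2 replicate 4, or JAK2-VF Ezh2-het batch 1 replicate 2 or batch 2 replicates 1, 2, 3 or 5 (up to 0.0686).

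**Figure D3:**
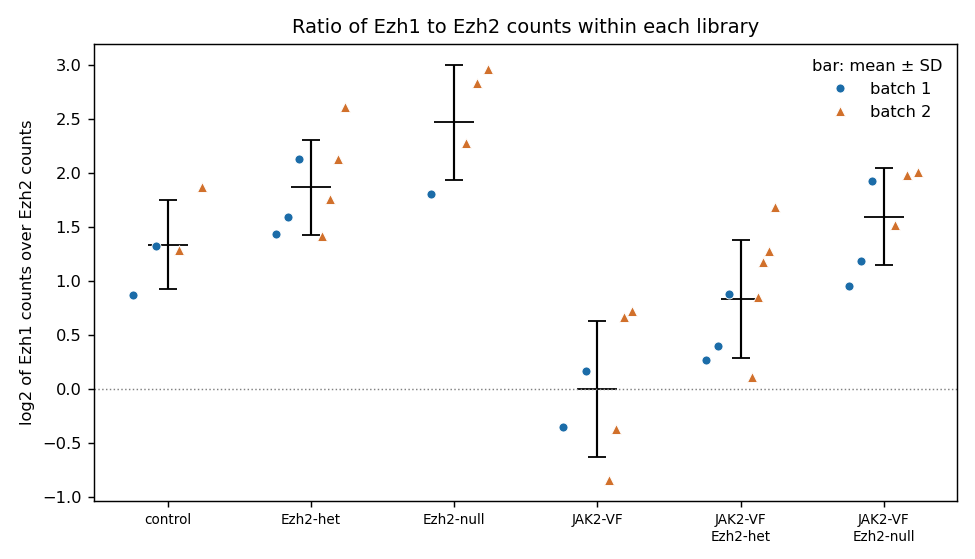
Log2 of Ezh1 counts over Ezh2 counts in each library of the 6 groups, with circles for batch 1, triangles for batch 2, bars for mean ± SD and a dotted line where counts are equal. All 6 JAK2-VF libraries, at -0.845 to 0.72, lie below every control, and the ratio is higher in both groups that lost Ezh2 alleles with JAK2-VF.

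The core genes Eed and Suz12 passed in no comparison. Eed was at 27.7 to 83.8 CPM and Suz12 at 32.8 to 121.6 CPM over the 35 libraries. In Ezh2-null against control the log2 differences were -0.23 (95% interval -0.69 to 0.23) for Eed and 0.10 (-0.33 to 0.53) for Suz12. In JAK2-VF Ezh2-null against JAK2-VF they were 0.145 (-0.225 to 0.515) and -0.28 (-0.62 to 0.06). Averaged over JAK2 states the slopes per Ezh2 allele lost were -0.02 (-0.16 to 0.12) and -0.05 (-0.175 to 0.08). A change in either gene of the size seen in Ezh2 lies outside those intervals. Averaged over Ezh2 genotypes, JAK2-VF gave 0.18 (-0.03 to 0.39) for Eed and 0.04 (-0.15 to 0.24) for Suz12.

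Of the histone-binding pair, Rbbp4 was higher with JAK2-VF and Rbbp7 was not called. Rbbp4 was at 474.1, 520.7, 532.1 and 565.9 CPM in the 4 controls and from 520.5 through a median of 593.9 to 737.1 CPM in JAK2-VF (n = 6), with 3 of the 6 above every control. The other 3 lay within the range of the controls. In JAK2-VF Ezh2-het it was at 513.9 to 684.2 CPM (median 588.2, n = 8), against 363.1 to 536.0 CPM in Ezh2-het (median 508.3, n = 7), with 7 of 8 above all 7. In JAK2-VF Ezh2-null it was at 509.6 to 669.0 CPM (median 617.5, n = 6), against 423.1, 437.0, 498.3 and 576.1 CPM in Ezh2-null. Against control, JAK2-VF gave a log2 difference of 0.36 ± 0.12 that did not pass (95% interval 0.11 to 0.60; edgeR adjusted p = 0.0861), nor did 0.27 ± 0.12 in JAK2-VF Ezh2-null against Ezh2-null (0.02 to 0.51; edgeR adjusted p = 0.22). Averaged over the Ezh2 genotypes, Rbbp4 rose by 0.34 ± 0.06 with JAK2-VF (edgeR adjusted p = 7e-05). That call held with any of the 35 libraries left out (edgeR adjusted p up to 0.000345) and was lost in batch 1 alone, where the value was 0.335 (edgeR adjusted p = 0.14). Rbbp7, at 210.7 to 320.2 CPM in all, gave 0.06 (-0.06 to 0.17) in the same contrast.

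Neither gene was called for Ezh2 dose, and their slopes were the most precise. The slopes per allele lost, averaged over JAK2 states, were -0.03 (-0.11 to 0.05) for Rbbp4 and -0.03 (-0.11 to 0.04) for Rbbp7, the narrowest intervals of the 10 members.

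Jarid2 and Aebp2, the cofactors of one form of PRC2, passed in no comparison. Jarid2 was at 83.6 to 243.1 CPM, and its highest libraries, at 219.2 and 243.1 CPM, were both JAK2-VF Ezh2-null of batch 1. In JAK2-VF Ezh2-null against JAK2-VF its log2 difference was 0.11 (-0.23 to 0.45). Aebp2 in JAK2-VF Ezh2-het was at 37.1 to 100.3 CPM (median 52.2, n = 8), against 18.9 to 65.8 CPM in JAK2-VF (median 34.9, n = 6). The groups overlapped, and the difference of 0.45 ± 0.15 (0.14 to 0.765) had an unadjusted edgeR p of 0.0059 and an adjusted p of 1. In Ezh2-null, at 38.0, 40.1, 44.1 and 48.1 CPM, all 4 libraries lay below the 4 controls, at 49.6, 50.8, 52.1 and 68.7 CPM. With batch and sex in the fit that difference was -0.07 (-0.50 to 0.37), in a comparison where 1 of the 4 Ezh2-null and 2 of the 4 control libraries were of batch 1 and 3 and 0 were male.

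Of the Polycomb-like genes, Mtf2 was called in no comparison of Ezh2 genotypes. It was at 109.9, 153.6, 167.7 and 175.4 CPM in the 4 Ezh2-null libraries and at 111.8, 114.6, 142.2 and 167.6 CPM in the 4 controls, which overlapped. In Ezh2-het it was at 63.8 to 139.5 CPM (median 109.2, n = 7), with 4 of 7 below every control and a log2 difference of -0.16 that did not pass (-0.475 to 0.15; edgeR adjusted p = 1). The JAK2-VF groups were alike in level, with medians of 135.7, 141.7 and 151.0 CPM at 0, 1 and 2 alleles lost. The log2 differences were 0.42 ± 0.18 in Ezh2-null against control (0.05 to 0.78; edgeR adjusted p = 0.796) and 0.40 ± 0.16 in JAK2-VF against control (0.07 to 0.73; edgeR adjusted p = 0.181). In JAK2-VF Ezh2-null against JAK2-VF it was -0.13 (-0.42 to 0.16). The difference of these Ezh2-null effects, -0.55 ± 0.24, had an unadjusted edgeR p of 0.031 and an adjusted p of 0.861. Averaged over Ezh2 genotypes, Mtf2 rose by 0.23 ± 0.08 with JAK2-VF (edgeR adjusted p = 0.04). That call was lost for 15 of the 35 libraries left out (edgeR adjusted p up to 0.086), without the 2 doubted Ezh2-het libraries (0.057), with DESeq2 size factors (0.0511) and within either batch.

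Phf19 was the least abundant member and the least precisely measured, with 62 to 754 counts per library. In Ezh2-het it ran from 4.94 to 24.7 CPM (median 14.2, n = 7), with 5 of 7 above every control, and in JAK2-VF Ezh2-null from 10.995 to 21.96 CPM (median 15.4, n = 6). In Ezh2-null it was at 2.85, 6.11, 10.4 and 14.1 CPM. Against control, Ezh2-het gave a log2 difference of 0.83 ± 0.42 (-0.035 to 1.69) that did not pass (edgeR adjusted p = 0.95). The log2 difference of JAK2-VF Ezh2-null against Ezh2-null, 0.87 ± 0.42 (0.01 to 1.72), did not pass (edgeR adjusted p = 0.264). For JAK2-VF Ezh2-null against JAK2-VF it was 0.56 (-0.21 to 1.34), an interval that holds both no change and more than a doubling.

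**Figure D4:**
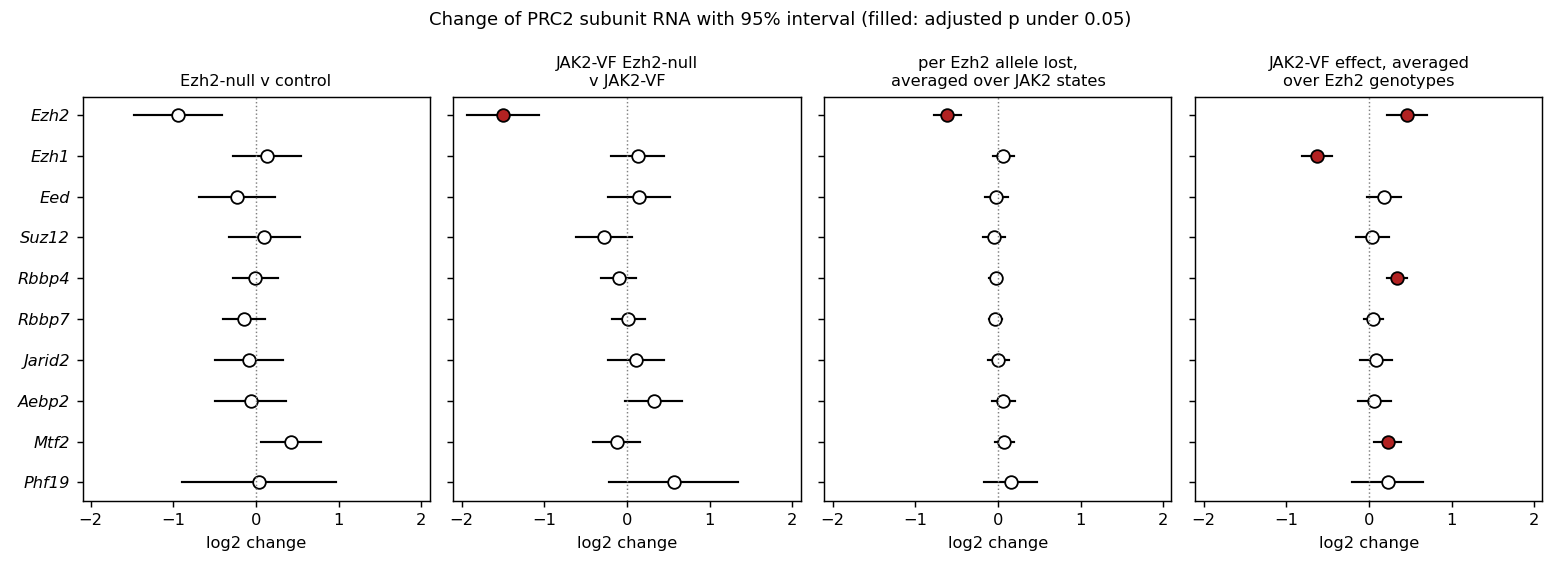
Log2 change of each PRC2 subunit in 4 contrasts of the same fits, with 95% intervals; filled points passed an adjusted p under 0.05 over all genes. Ezh2 alone passes for Ezh2 loss (-1.498 with JAK2-VF), and Ezh1 (-0.63) lies opposite to Ezh2, Rbbp4 and Mtf2 for JAK2-VF.

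In the contrast of JAK2-VF averaged over Ezh2 genotypes, 4 of the 10 members were called, Ezh2 (0.46 ± 0.12, edgeR adjusted p = 0.00451), Rbbp4 and Mtf2 higher and Ezh1 lower. The background was high there, with 25.4% of all genes called, so 4 of 10 is not read as particular to the complex. The median over the members was 0.13, against -0.01 over all genes. Ezh2 in JAK2-VF against control had reached 0.76 ± 0.24 without passing (0.26 to 1.25; edgeR adjusted p = 0.0707), with 3 of 6 libraries above every control. It passed there by DESeq2 (0.749, adjusted p = 0.0362), without the term for sex (0.835, edgeR adjusted p = 0.0254) and without JAK2-VF batch 1 replicate 2 (0.928, edgeR adjusted p = 0.0323). In JAK2-VF Ezh2-null against Ezh2-null it was 0.20 (-0.27 to 0.68). Within batch 1 the averaged value of Ezh2 was 0.26 (edgeR adjusted p = 0.754).

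Cell division genes and stem cell markers moved with the same contrast. Of 30 cell division genes, such as Bub1b of the spindle checkpoint (2.13 ± 0.17, edgeR adjusted p = 7.75e-11) and the mitotic kinase gene Cdk1 (1.74 ± 0.15, edgeR adjusted p = 3.36e-10), 30 rose, with a median of 1.44. Their summed level was 965.6 to 2434 CPM in the groups without JAK2-VF and 2351 to 5337 CPM with it. Of 7 stem cell markers 5 fell, among them Hlf, a transcription factor gene of stem cells, by 0.78 ± 0.09 (edgeR adjusted p = 9.47e-08). Of 13 markers of other blood cells tested, Pf4 rose by 1.34 ± 0.44 (edgeR adjusted p = 0.0224). The summed level of the 15 such markers counted ran from 578.0 to 7051 CPM in JAK2-VF (median 3122) and from 848.4 to 2445 CPM in control (median 1400). It ran from 503.2 to 5577 CPM in JAK2-VF Ezh2-het (median 1869) and from 366.3 to 2764 CPM in JAK2-VF Ezh2-null (median 1644). In Ezh2-het it ran from 196.2 to 2558 CPM (median 1054) and in Ezh2-null from 274.4 to 1484 CPM (median 1278). The ranges overlapped, and the median was highest in JAK2-VF. Within groups, after batch and sex, the mean of the cell division genes correlated with Rbbp4 at r = 0.73 (Spearman 0.61, n = 35; 0.63 without the 2 farthest libraries), at 0.62 in batch 1 and 0.77 in batch 2. For Ezh2 it was 0.37 in all, but -0.26 in batch 1 and 0.71 in batch 2, and for Ezh1 -0.38, 0.17 and -0.60. Only the relation with Rbbp4 had the same sign in both batches among these 3. The part of cell division in the changes of Ezh2, Ezh1, Rbbp4 and Mtf2 was not tested.

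For the slope per Ezh2 allele lost, averaged over JAK2 states, edgeR called 0 of the 30 cell division genes. That contrast called 0.475% of all genes, so 0 of 30 is not read as particular to cell division. At an unadjusted p under 0.05 there were 0 of the 30 and 1138 of all genes. DESeq2 called 0 of the 30 and 122 of all genes. The median of the 30 was -0.012, against -0.001 over all genes. Of the stem cell markers, Ly6a rose by 0.34 ± 0.06 per allele (edgeR adjusted p = 0.00126).

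Other genes of Polycomb silencing were described in the same fits. Of 12 genes of canonical PRC1, the complex that binds the PRC2 mark, 5 fell with JAK2-VF averaged over Ezh2 genotypes and 0 rose (median -0.24), in a contrast that called 25.4% of all genes. Cbx7 and Cbx6, which bind the mark, fell by 0.85 ± 0.11 and 0.53 ± 0.07 (edgeR adjusted p = 7.11e-07 and 7.33e-07), and Bmi1 fell by 0.53 ± 0.13 (0.00229). For Ezh2 loss averaged over JAK2 states, Bmi1 rose by 0.44 ± 0.09 per allele (edgeR adjusted p = 0.0105). In all 1 of the 12 genes was called there, with 3 at an unadjusted p under 0.05 and 1 by DESeq2. That contrast called 0.475% of all genes. Of 4 further PRC2 partners, the Polycomb-like gene Phf1 fell by 0.87 ± 0.15 with JAK2-VF (edgeR adjusted p = 6.07e-05). The demethylase genes Kdm6a and Kdm6b, which remove the mark, were called in 0 of the comparisons by edgeR and in 0 by DESeq2, and 1 of the pair had an unadjusted p under 0.05 in JAK2-VF Ezh2-null against JAK2-VF. Of 15 genes of the complexes that share Rbbp4 and Rbbp7, 3 rose with JAK2-VF averaged over genotypes, Hdac1 (0.38), Chaf1a (1.002), of the chromatin assembly factor used in replication, and Mta2 (0.26), and Chd4 fell (-0.21). These 4 of 15 lie near the 25.4% of all genes called, so they are not read as particular to these complexes.

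Several subunits, Suz12 most, differed between batches. Suz12 was at 62.0 to 121.6 CPM in the 14 libraries of batch 1 and at 32.8 to 75.1 CPM in the 21 of batch 2. In the fit it was lower in batch 2 by 0.72 ± 0.10 on the log2 scale, and Aebp2 by 0.58 ± 0.10, Eed by 0.47 ± 0.10, Ezh2 by 0.38 ± 0.12 and Jarid2 by 0.31 ± 0.10. Ezh1, Rbbp7 and Phf19 differed by 0.06, 0.02 and 0.01. In size, the Suz12 value was larger than or equal to those of 84% of all genes, so many other genes differed as much. The batch label does not say which step differed, so batch effects on these genes cannot be assigned to one.

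**Figure D5:**
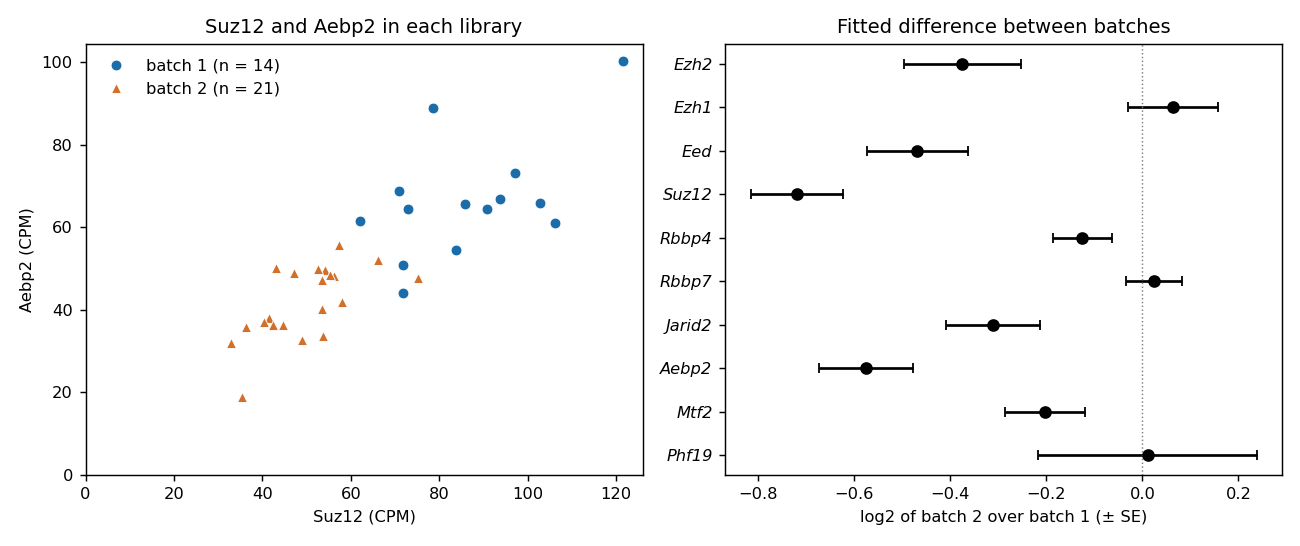
Left, Suz12 against Aebp2 in CPM for each library, circles for batch 1 (n = 14) and triangles for batch 2 (n = 21); right, the fitted log2 difference of batch 2 over batch 1 for each subunit ± SE. Suz12 and Aebp2 rise together within each batch, and both are lower in batch 2.

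After group, batch and sex were removed, Suz12 and Aebp2 varied together over the 35 libraries (r = 0.68, Spearman 0.61), at 0.70 within batch 1, 0.68 within batch 2 and 0.64 without the 2 libraries farthest from the median of Suz12. Rbbp4 and Rbbp7 followed at r = 0.58 (Spearman 0.50; 0.49 and 0.62 within batches). Ezh1 ran against Rbbp4 at r = -0.56 (Spearman -0.56), which was -0.24 in batch 1 and -0.70 in batch 2. Ezh2 and Ezh1 were at -0.15 and Ezh2 and Suz12 at -0.10. The first 3 pairs are the strongest of 45; all are given as a description, and total counts differed among the libraries.

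The genes most like Ezh2 in these residuals, among 9618 genes past a floor of 3 for their average log2 CPM, were Ndufaf2 (r = 0.70), Asf1a (0.68), Irgq (0.65), Impa2 (0.64), Rbm4 (0.63) and Drg1 (0.63), against a 99th percentile of 0.48. No other PRC2 member was nearer than Eed, at 0.21. Those most like Ezh1 were Chd2 (0.78), Gcnt2 (0.77), Elmo1 (0.72), Agtrap, Pear1 and Plag1 (0.68 each), against a 99th percentile of 0.54. With group, batch and sex left in, the correlation of the levels was lower for all 6 neighbours of Ezh2, at -0.05 for Irgq, 0.26 for Impa2, 0.29 for Asf1a, 0.40 for Ndufaf2, 0.40 for Rbm4 and 0.61 for Drg1. With Ezh1 it was 0.84 for Gcnt2, 0.84 for Pear1, 0.74 for Plag1, 0.57 for Agtrap, 0.53 for Chd2 and 0.17 for Elmo1.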

How the data were processed

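RNA had been isolated from 1000 sorted LT-HSCs per library with a Pico-Pure kit and entered a SMARTer low-input preparation, per the labels' protocols. The deposited values are raw counts per Entrez gene from the authors, with gene lengths as another column. STAR and mm9 are named in the submitters' processing notes; the sources used here give no version, counting tool, annotation or strand, so reads of antisense or overlapping genes cannot be told apart. Of 19139 entries, 1 is part of Ezh2 and was kept out of library totals and tests. Symbols matched 19075 of 19138 genes.

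Genes passing filterByExpr (14945, with 4193 left out) were fitted with edgeR 4.0.16 (R 4.3.3; TMM, quasi-likelihood) over all 35 libraries, with group, batch and sex, or alleles lost within each JAK2 state, batch and sex. P-values were adjusted by Benjamini-Hochberg over all genes, with a threshold of 0.05. The fit was tested on simulated data with less spread than these libraries and no batch or sex effects, so that test does not cover their noise. The Ezh1 to Ezh2 ratio (0.5 added to counts) and neighbouring Ezh2 levels were compared by exact permutation, without terms for batch or sex. Intervals are 95%, and the limit for 0 counts (3 counts) covers counting error only. Alternatives used DESeq2 1.42.0, other filters and designs, each batch and each library left out. The averaged contrasts and a robust fit were added after seeing the data. All 10 members are described; of other lists, up to 3 called genes per comparison; and the 6 genes most like Ezh2 and Ezh1. Members and lists were chosen with earlier results of these data known. Python 3.11.15, scipy 1.17.1 and matplotlib 3.10.9 were used. Some results on marker genes are not reported here.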

Additional observations from a re-analysis of the deposited data

Results flagged for a closer look

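Within groups of 4 to 8 libraries, a single library stood apart in 4 of 66 sets tested (10 members and the Ezh1 to Ezh2 ratio in 6 groups), where chance flags about 1 in 20. Aebp2 was at 100.3 CPM in JAK2-VF Ezh2-het batch 1 replicate 2, against 37.1 to 66.9 CPM in the other 7, and at 68.7 CPM in control batch 1 replicate 2, against 49.6 to 52.1 CPM in the other 3. Phf19 was at 20.6 CPM in JAK2-VF Ezh2-het batch 1 replicate 1, against 6.08 to 10.7 CPM in the others, and at 5.65 CPM in control batch 2 replicate 4, against 9.41 to 10.1 CPM. Ezh2, Ezh1 and their ratio had no such library.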

How the results depend on the processing

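Batch 1 alone, with 14 libraries, called 0 members in each of the 6 comparisons where the full data called any: JAK2-VF Ezh2-null against JAK2-VF, JAK2-VF against control, JAK2-VF Ezh2-null against Ezh2-null, the slope with JAK2-VF and both averaged contrasts. Batch 2 alone called 0 members for JAK2-VF against control and for JAK2-VF Ezh2-null against Ezh2-null. For JAK2-VF against control, DESeq2 called 2 members, the fit without sex 2 and the fit with the replicate number as a replicate block 3 (Ezh1, Ezh2 at 0.791 and Rbbp4 at 0.475, edgeR adjusted p = 0.0146); for JAK2-VF Ezh2-null against Ezh2-null the replicate block called 0, with Ezh1 at -0.495 (edgeR adjusted p = 0.0931). Libraries with the same number did not vary together (median r = -0.03 over 69 pairs, against -0.04 over 192 other pairs). Pairing by number was thus not seen, but a median correlation cannot exclude it. The block changed no other call of a member. With each library left out in turn, 0 to 1 members were called for either of these comparisons, 1 for JAK2-VF Ezh2-null against JAK2-VF, for the slope with JAK2-VF and for the averaged slope, 3 to 4 for the averaged JAK2-VF contrast and 0 elsewhere.

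The ratio differences for JAK2-VF against control, JAK2-VF Ezh2-null against JAK2-VF and JAK2-VF Ezh2-het against JAK2-VF were -1.19, 1.44 and 0.61 in batch 1 alone (exact permutation adjusted p = 0.4 each) and -1.535, 1.79 and 0.98 in batch 2 alone (0.16, 0.15 and 0.15). With single libraries left out they ran from -1.495 to -1.161, 1.43 to 1.74 and 0.665 to 0.98. The other ratio differences ran from 0.97 to 1.35 (Ezh2-null against control), 0.37 to 0.71 (Ezh2-het against control) and -1.096 to -0.71 (JAK2-VF Ezh2-null against Ezh2-null). Added counts of 0.1 or 2, leaving the part out of Ezh2 and omitting the 2 doubted libraries changed no call of the ratio.

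Of 110 pairs of member and comparison, 9 were called, none of which changed sign under any alternative. Among those not called, 53 changed sign under some alternative. Their values in the full data were at most 0.34 in size, and the largest after a change of sign was -0.93, for Phf19 in Ezh2-null against control. Counts over all genes depended more on the tool: for JAK2-VF Ezh2-null against JAK2-VF edgeR called 67 and DESeq2 193, and for JAK2-VF against control 620 and 1003, while the batches alone called 1 and 20 in the first and 65 and 33 in the second. For JAK2-VF Ezh2-null against Ezh2-null the count was 719, with 1117 by DESeq2, 405 with the replicate block and 3 and 350 in the batches alone. For the slope with JAK2-VF it was 78, with 135 by DESeq2 and 0 and 19 in the batches, and for the averaged JAK2-VF contrast 3791, with 554 and 2124 in the batches. Where edgeR called 0 or 1 genes, other settings of edgeR called at most 9 (the slope without JAK2-VF, no low-count filter). For the averaged slope the count was 71 in edgeR, 122 by DESeq2, 120 without the low-count filter, 23 with the replicate block and 0 and 4 in the batches alone. Without JAK2-VF batch 1 replicate 1 the counts fell to 27 (JAK2-VF Ezh2-null against JAK2-VF), 49 (the slope with JAK2-VF) and 285 (JAK2-VF against control). The last was 279 or 393 without control batch 1 replicate 1 or 2 and 382 without JAK2-VF batch 1 replicate 2. JAK2-VF Ezh2-null against Ezh2-null gave 344 or 428 without Ezh2-null batch 2 replicate 1 or 3 and 466 without JAK2-VF Ezh2-null batch 2 replicate 2. Phf19 had the lowest counts of the members, 62 to 754 per library.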
